A study of Mus musculus with 6 samples.

Results

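Interleukins are secreted proteins with which immune and tissue cells signal to one another, and interleukin receptors are the membrane proteins that receive them. Every gene whose annotated symbol is Il followed by a number was taken, apart from Il6st, Il6ra and Il11ra1, and each was represented by its brightest probe set that names only that gene. This gave 76 of the 22180 genes measured: 37 ligands, 32 receptor chains, 6 antagonists or decoys, and 1 antisense transcript at the Il1b locus, Il1bos. The symbols are those of the platform annotation, so that the IL-36 and IL-38 genes appear under their older names Il1f5, Il1f6, Il1f8, Il1f9 and Il1f10. Il4i1 shared its probe set with other genes and was not named from it, and Il2rg and Il1rl1 were not analysed here.

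The tumours grew from B16-F1 cells, a pigmented mouse melanoma line, in C57BL6 hosts. Of the 6 tumours, 3 came from Stat2 KO hosts and 3 from WT hosts, all collected at day 20. The labels give the genotype of the host and do not say that the melanoma cells themselves lack Stat2, and the age and sex of the animals are not given in the sources used here. RNA of each tumour was hybridized to 1 Affymetrix array. Whether the tumours of a group came from separate mice is not stated in the labels, and the p-values therefore speak only to the spread among these 6.

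STAT2 carries the signal of the type I interferon receptor to the nucleus, where it helps to switch on interferon-induced genes. Several interleukin genes are among those known to respond to interferons in myeloid cells, including Il15, Il15ra, Il18, Il18bp and Il27. Other interleukins act on lymphocytes, on the epithelium or on the matrix-forming cells that surround a tumour. In tumour RNA, fewer cells of a type and less RNA per cell cannot be told apart.

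Stat2 read 6.45, 6.48 and 6.33 in the Stat2 KO hosts against 6.79, 6.70 and 6.70 in the WT hosts (log2), without overlap. The melanocyte genes of the implanted cells were present, with 11 of 11 markers above the 95th percentile of olfactory and vomeronasal receptor genes, which served as a stand-in for background. That bound was 6.75 log2 units, over 1390 such genes, and their median was 5.15. Of the macrophage markers 4 of 11 measured lay above the bound, and of the T cell markers 0 of 10. Correlations between arrays ranged from 0.964 to 0.986 across genes. No detection calls were used here, and the number of arrays limits the precision.

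Most interleukin genes read low in these tumours. Of the 76 genes, 9 averaged above the receptor bound, 6 receptor chains and 3 ligands, and 67 did not. Of those 67, 14 also lay below the receptor median. The median level was 5.76 log2 units, at percentile 29.5 of all genes, and the range ran from 1.94 for Il22 to 9.66 for Il10rb. Probe sets differ in how strongly they bind their transcripts, so these values order probe sets and serve to find equally bright genes, and do not rank transcript amounts.

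**Figure D1:**
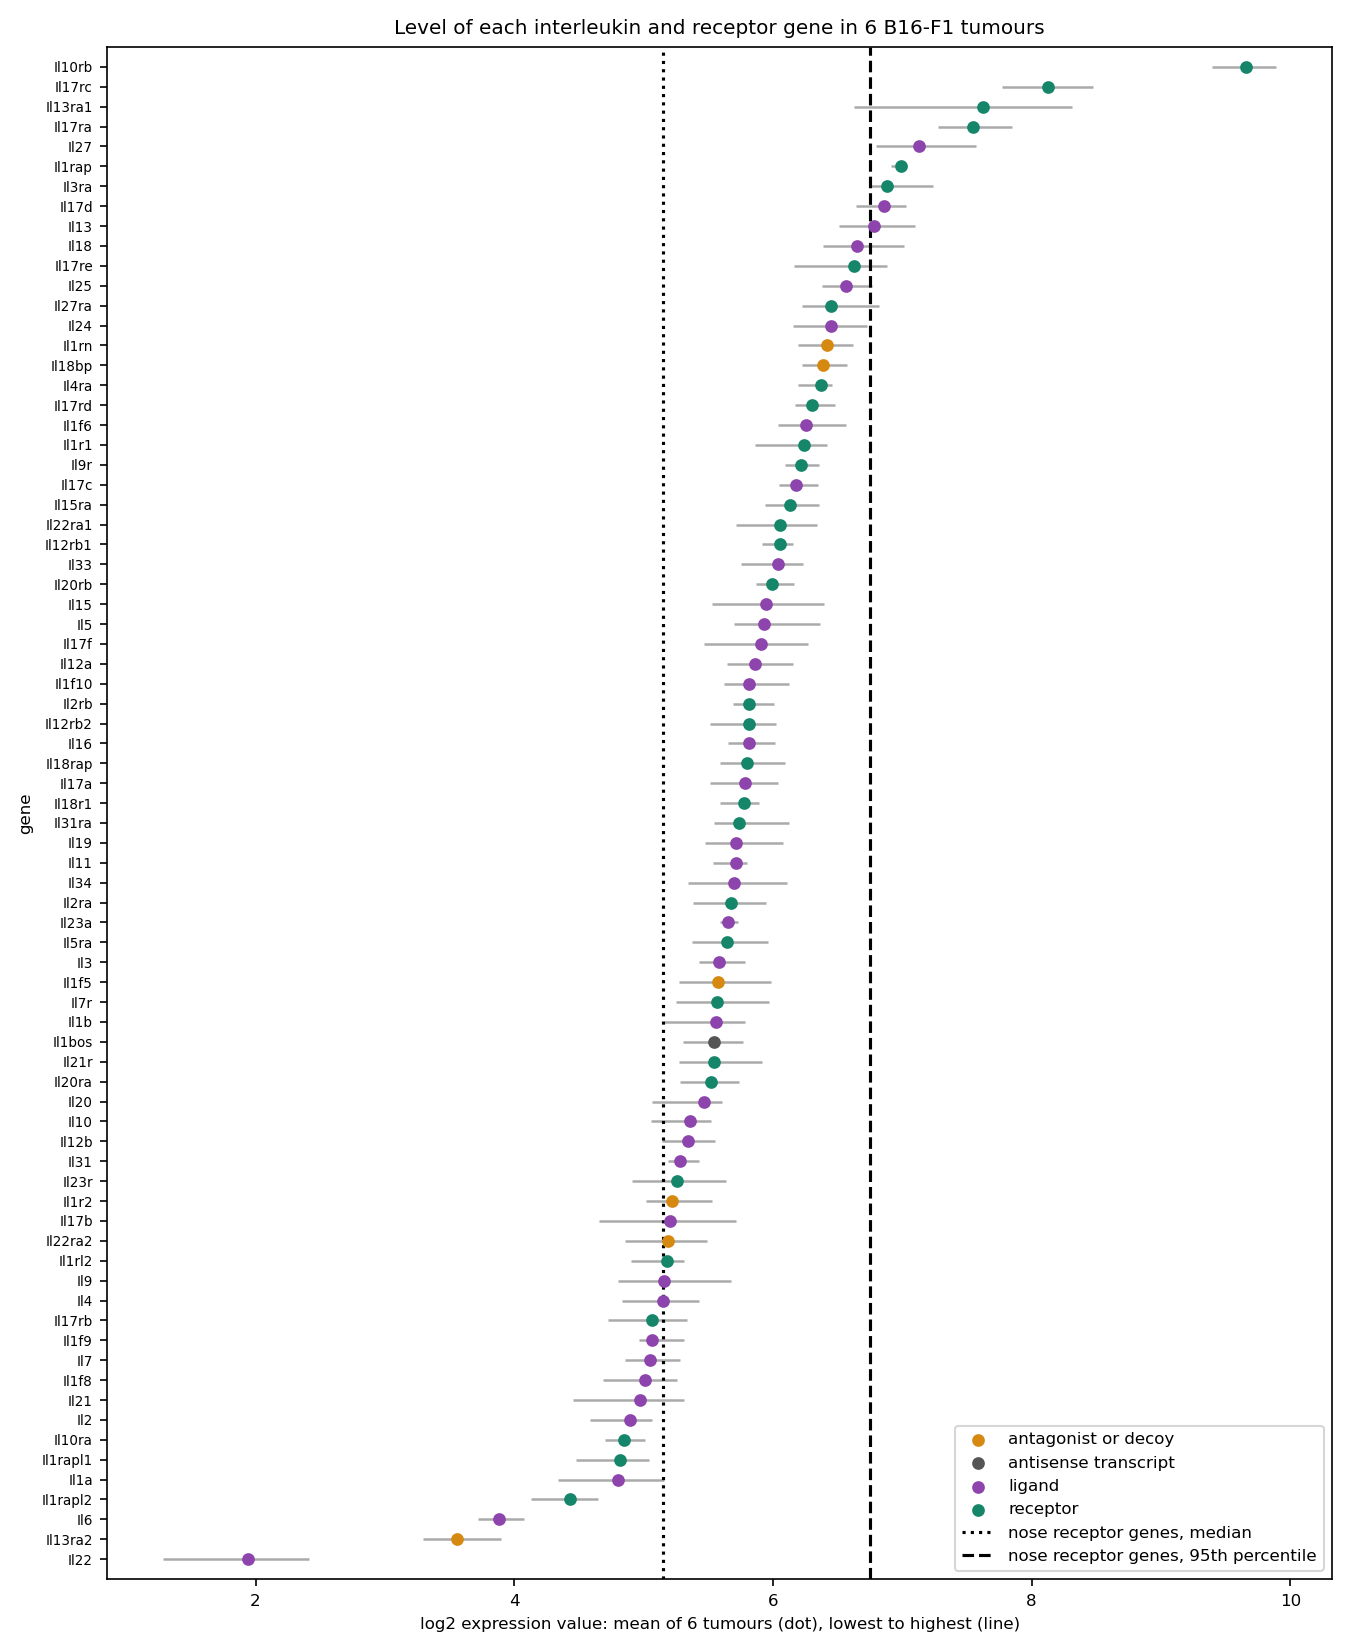
Mean log2 expression value of each of the 76 genes over 6 tumours (dots, coloured by role), with a line from the lowest to the highest tumour; genes run down the page from bright to dim. The dotted and dashed lines mark the median (5.15) and the 95th percentile (6.75) of olfactory and vomeronasal receptor genes ("nose receptor genes"). The dots of 9 genes lie right of the dashed line.

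The bright genes were mainly receptor chains. Il10rb, the shared second chain of the receptors for IL-10, IL-22 and the interferon lambdas, read 9.89, 9.39 and 9.82 in the Stat2 KO group and 9.66, 9.63 and 9.55 in WT hosts. The groups overlapped, and the difference was 0.09 (SE 0.155). Il1rap, the accessory chain of the IL-1, IL-33 and IL-36 receptors, was nearly level over all 6 tumours, at 7.004 ± 0.037 in the Stat2 KO group and 6.97 ± 0.055 in WT hosts (SD, n = 3 each). Its difference was 0.03, with a 95% interval from -0.24 to 0.30. Il3ra, the IL-3 receptor alpha chain, differed by 0.11 (SE 0.156), Il17d by 0.03 (SE 0.146) and Il13 by 0.28 (SE 0.146).

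No interleukin or receptor gene passed the test between host genotypes. By limma with Benjamini-Hochberg adjustment over all 22180 genes, 0 of 76 were lower and 0 were higher at an adjusted p under 0.05, where 0.00902% of all genes were called lower and 0% higher. The smallest adjusted p among them was 0.46, that of Il18. At an unadjusted p under 0.05 there were 11 of 76, of which 3 lay lower and 8 higher in the Stat2 KO group. The background for these counts is 3.48% of all genes lower and 5.34% higher, against 3.95% and 10.5% of the interleukin genes. The 95% interval of the difference lay within 1 log2 unit of zero, a 2-fold change, for 75 of the 76. The exception was Il13ra1. These intervals speak to the array values. For the 67 genes at or below the receptor bound, they do not limit the change in transcript amount.

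As a list, the interleukin genes read slightly higher in Stat2 KO hosts, and equally bright genes did so too. The difference was above zero for 60 of 76 (78.9%, against 54.0% of all genes) and below it for 16, with a median of 0.12 log2 units beside 0.02 over all genes. When all genes were divided into 10 bins of equal size by mean level, the medians of the 5 dimmest bins lay between 0.08 and 0.12 and those of the 4 brightest bins between -0.12 and -0.03. Each interleukin gene was set against the median of its own bin, and 43 lay above it and 33 below, with a median distance of 0.03. Genes of the bins that the interleukins occupy, weighted in the same proportions, were higher in 67.95% of cases. Of the same genes 7.44% had an unadjusted p under 0.05 in the higher direction and 1.99% in the lower. The split of 60 higher and 16 lower depended on the scaling, and that of all genes moved with it. It was 54 and 22 after a further quantile normalization, with 51.5% of all genes higher. It was 49 and 27 both after median centring, with 39.7% of all genes higher, and after cyclic loess, with 49.5%.

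**Figure D2:**
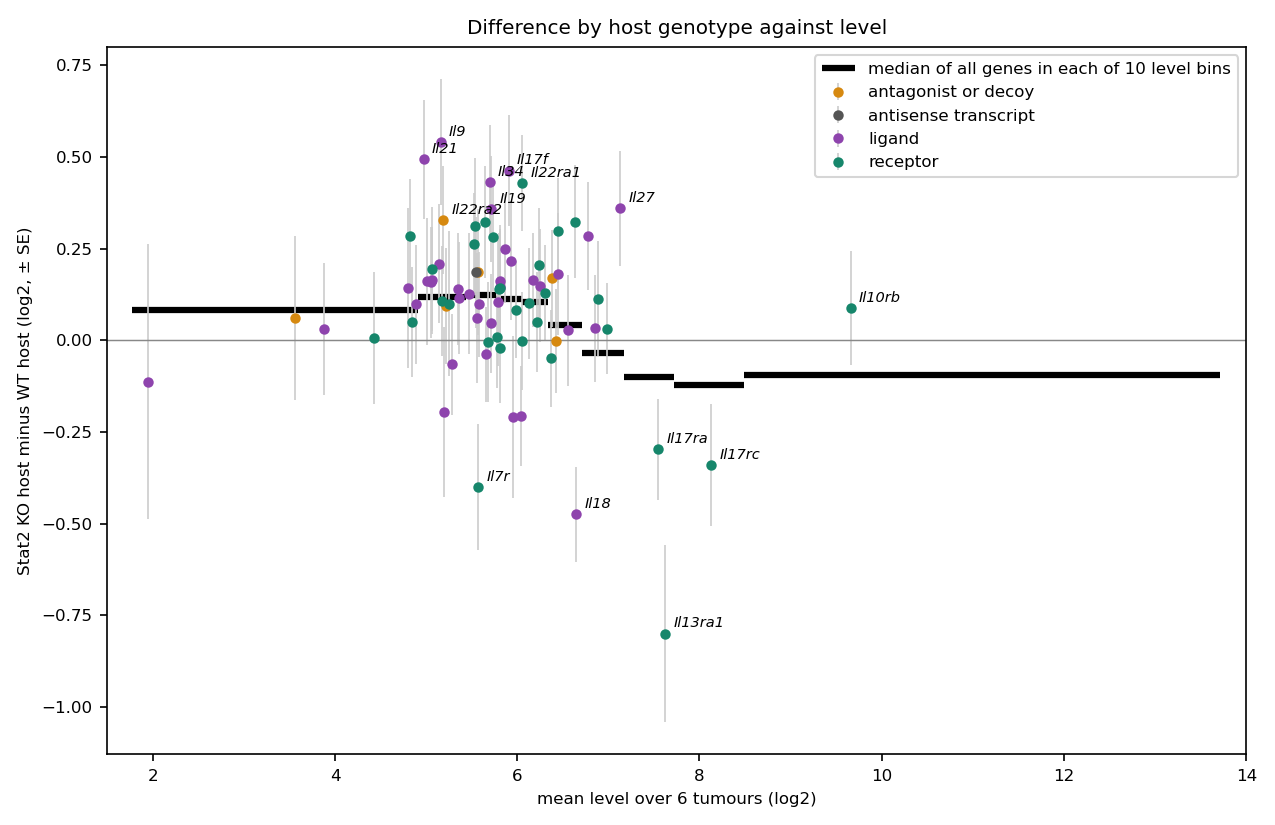
Difference in log2 expression (Stat2 KO host minus WT host, dots with SE) of the 76 genes against their mean level over 6 tumours; black bars give the median difference of all genes in each of 10 level bins. The bars lie above zero for dim genes and below zero for bright ones, and the cloud of interleukin genes sits around them, with Il13ra1, Il18 and Il7r below.

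Groups that did not overlap were found for 4 genes with all Stat2 KO tumours lower (5.26% of 76, where 5.11% of all genes did so) and for 12 with all of them higher (15.8%, where 8.23% of all genes and 11.6% of genes in the same bins did so). The 4 were Il13ra1, Il18, Il17ra and Il33. Of these, 2 averaged above the receptor bound, and 0 of the 12 did. An exact permutation of 3 against 3 tumours cannot give a p below 0.1, which all the genes without overlap reached.

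The shift was uneven between tumours. Among the 67 interleukin genes at or below the receptor bound, Stat2 KO replicate 2 held the highest of the 6 values for 27, Stat2 KO replicate 3 for 20 and Stat2 KO replicate 1 for 4. WT replicate 1 held the lowest value for 23 of the 67, and Stat2 KO replicate 1 for 17. Among all 13536 genes at or below the bound the same tumours led, with 36.6% highest in Stat2 KO replicate 2 and 32.2% lowest in WT replicate 1. Median values over all probe sets were 6.08, 6.22 and 6.17 in Stat2 KO replicates 1 to 3, against 6.06, 6.06 and 6.13 in WT replicates 1 to 3. Without Stat2 KO replicate 1, groups did not overlap for 32 interleukin genes in the higher direction, where 20.0% of all genes did so. Without Stat2 KO replicate 2 the count higher at an unadjusted p under 0.05 was 4 instead of 8, with 3.94% of all genes called.

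**Figure D3:**
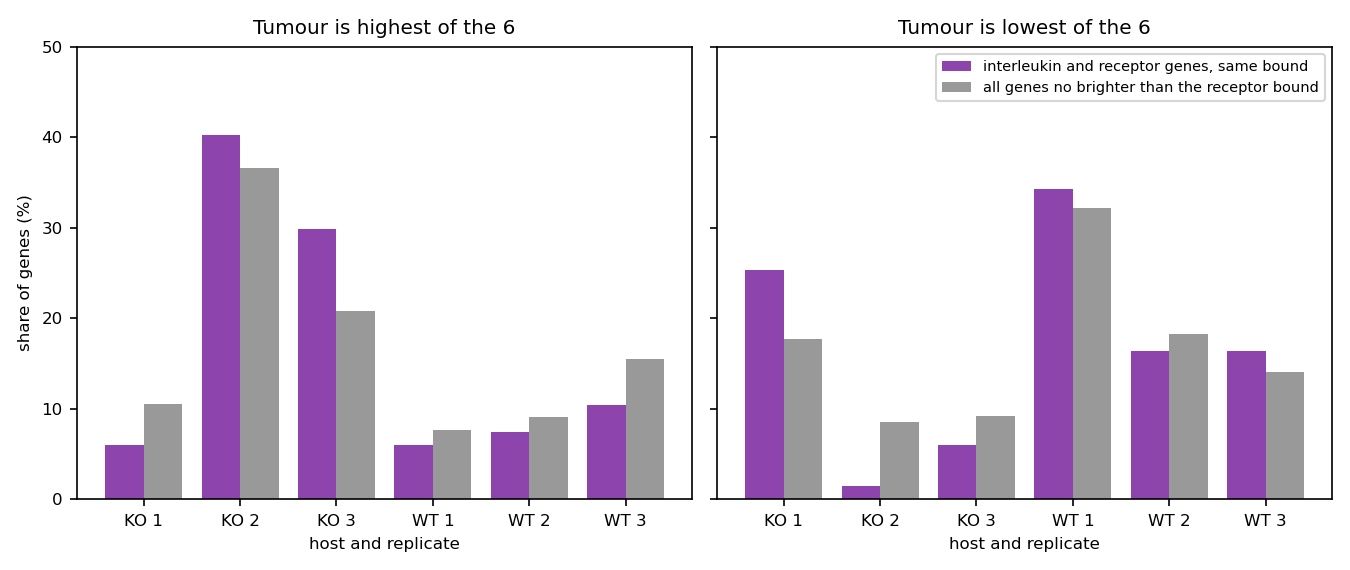
Share of genes (%) for which each tumour had the highest (left) or lowest (right) of the 6 values, for the 67 interleukin and receptor genes at or below the receptor bound (purple) and for all 13536 genes at or below it (grey). In both sets Stat2 KO replicate 2 was most often the highest and WT replicate 1 most often the lowest.

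Among the 37 ligands, Il18 of the IL-1 family had the lowest difference. IL-18 is made as an inactive precursor by macrophages and epithelial cells, is cut to its active form by caspase-1, and drives interferon gamma release by T and NK cells. Il18 read 6.39, 6.44 and 6.41 in Stat2 KO hosts against 7.02, 6.86 and 6.78 in WT hosts. No Stat2 KO value reached the lowest WT value, and the 3 Stat2 KO values were nearly equal. The difference was -0.47 (SE 0.129), or 28.0% lower, with an unadjusted p of 0.00308 and an adjusted p of 0.46 (limma). Of the 2218 genes in the same bin of level, 1.13% had a difference as low. Without any 1 array it ranged from -0.53 to -0.41. The mean was 6.41 in Stat2 KO hosts, below the receptor bound of 6.75, and 6.89 in WT hosts, above it.

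The genes of the partners of IL-18 gave differences above zero, as did most genes of their level bins. In the bin of Il18r1 and Il18rap 76.9% of genes did, with a median difference of 0.11. In that of Il18bp 59.6% did, with a median of 0.04. The receptor genes Il18r1 and Il18rap differed by 0.01 and 0.14, and Il18bp, which encodes a secreted protein that binds and blocks IL-18, by 0.17 (SE 0.132), with 6.51, 6.57 and 6.33 in Stat2 KO hosts against 6.37, 6.31 and 6.22 in WT hosts. Of the 11 genes listed for IL-1 and IL-18 maturation, 5 were lower and 6 higher, and 0 passed at an adjusted or unadjusted p under 0.05. Among them Pycard, the inflammasome adaptor, differed by 0.16.

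Il33, an alarmin that stromal and epithelial cells hold in the nucleus, read 5.75, 6.04 and 6.02 in the Stat2 KO group and 6.23, 6.12 and 6.07 in WT hosts. The Stat2 KO values were all lower, by a narrow margin, with a difference of -0.21 (SE 0.137, adjusted p = 0.66, limma) that was -0.11 without Stat2 KO replicate 1. Il1b, a main inflammatory product of activated myeloid cells, read 5.52, 5.79 and 5.46 in the Stat2 KO group and 5.16, 5.63 and 5.79 in WT hosts. Its groups overlapped widely, and the 95% interval of the difference ran from -0.33 to 0.45. Il1a differed by 0.14 (SE 0.218) and the antisense transcript Il1bos by 0.19 (SE 0.150). The other 4 ligands of the family, Il1f6, Il1f8, Il1f9 and Il1f10, differed by 0.15 to 0.16. The 7 receptor genes of the family all had differences above zero, from 0.006 for Il1rapl2 to 0.28 for Il1rapl1, and the 4 antagonists and decoys ran from -0.002 for Il1rn to 0.19 for Il1f5.

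The receptor gene Il13ra1 had the largest difference of the 76. IL-13 receptor alpha 1 pairs with the IL-4 receptor alpha chain to form the receptor through which macrophages, fibroblasts and other cells outside the lymphocyte lineage respond to IL-4 and IL-13. Il13ra1 read 7.53, 6.63 and 7.52 in Stat2 KO hosts against 8.31, 8.13 and 7.63 in WT hosts. The groups did not overlap, but the gap was narrow, 7.53 against 7.63, and Stat2 KO replicate 2 lay far below the other tumours. The difference was -0.80 (SE 0.241), or 42.6% lower, with an unadjusted p of 0.00599 and an adjusted p of 0.46 (limma). Without Stat2 KO replicate 2 it was -0.50. Among the 2218 genes of its level bin, 0.316% were as low. Both group means lay above the receptor bound, at 7.22 ± 0.517 in Stat2 KO and 8.02 ± 0.350 in WT hosts (SD, n = 3 each), while Stat2 KO replicate 2 lay below it.

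The rest of the IL-4 and IL-13 system gave other values. Il4ra, the partner chain, read 6.20, 6.38 and 6.46 in the Stat2 KO group and 6.44, 6.42 and 6.31 in WT hosts, a difference of -0.05 (95% interval -0.34 to 0.24). Il13ra2, the decoy receptor for IL-13, read 3.59 and 3.53 in the means of Stat2 KO and WT hosts, both far below the receptor median. The ligand Il13 averaged 6.92 ± 0.169 in the Stat2 KO group and 6.64 ± 0.173 in WT hosts (SD, n = 3 each), with overlapping groups. Il4 differed by 0.21 (SE 0.162) at a level near the receptor median.

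Macrophage and fibroblast markers also read mostly lower in Stat2 KO hosts. Of 11 measured macrophage markers 10 had a difference below zero, where 46.0% of all genes did. At an unadjusted p under 0.05 there were 4 lower, beside 3.48% of all genes, and 0 passed after adjustment. The mean deviation of the 11 markers from the gene averages ran from -0.28 to -0.07 in the Stat2 KO tumours and from 0.04 to 0.27 in the WT tumours. Of 9 fibroblast markers 8 had a difference below zero, 4 at an unadjusted p under 0.05, beside the same 3.48%. The direction followed level, with 72.1% of all genes above the receptor bound below zero and 29.2% of the others. Above the bound lay 5 of the 9 fibroblast and 4 of the 11 macrophage markers. Of all 8644 genes above it, 540 were lower at an unadjusted p under 0.05. For the fibroblast markers Stat2 KO replicate 2 had the lowest mean deviation, -0.47. That tumour, which had the lowest Il13ra1, was also the lowest for the melanocyte markers, at -0.42, and the endothelial markers, at -0.24. It held the lowest value for 5037 of all 22180 genes, but for only 1158 of the 13536 at or below the bound. Genes above the bound were therefore lowest in it more often. Il13ra1, all 11 melanocyte markers and 5 of the 8 endothelial markers lay above the bound. The part of these cell types in the differences of Il18 and Il13ra1 was not tested.

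The promoters of Il18 and Il13ra1 are shown beside that of Il19, which held both motifs, because STAT2 complexes are known to bind the interferon-stimulated response element. Sequences are RefSeq windows of GRCm38.p6 from 250 bases before to 50 bases after the annotated start, read 5′ to 3′ on the strand of the gene. Capitals mark matches to that element, taken as GAAA, any 2 bases and GAAA, or to the gamma-activated site TTCNNNGAA, both searched on both strands. The windows are chr9:50554450-50554749 on the plus strand for Il18, chrX:36111858-36112157 on the plus strand for Il13ra1 and chr1:130940066-130940365 on the minus strand for Il19.
Il18: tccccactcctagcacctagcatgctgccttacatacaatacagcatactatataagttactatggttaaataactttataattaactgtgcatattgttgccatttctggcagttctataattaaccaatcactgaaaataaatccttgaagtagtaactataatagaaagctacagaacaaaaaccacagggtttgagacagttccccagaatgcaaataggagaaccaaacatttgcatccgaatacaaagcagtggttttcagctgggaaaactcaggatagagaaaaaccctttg
Il13ra1: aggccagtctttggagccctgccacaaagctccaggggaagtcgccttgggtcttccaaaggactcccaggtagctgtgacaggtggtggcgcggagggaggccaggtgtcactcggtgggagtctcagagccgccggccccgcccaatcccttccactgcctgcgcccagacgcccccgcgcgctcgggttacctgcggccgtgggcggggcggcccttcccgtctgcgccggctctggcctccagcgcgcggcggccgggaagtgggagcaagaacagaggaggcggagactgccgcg
Il19: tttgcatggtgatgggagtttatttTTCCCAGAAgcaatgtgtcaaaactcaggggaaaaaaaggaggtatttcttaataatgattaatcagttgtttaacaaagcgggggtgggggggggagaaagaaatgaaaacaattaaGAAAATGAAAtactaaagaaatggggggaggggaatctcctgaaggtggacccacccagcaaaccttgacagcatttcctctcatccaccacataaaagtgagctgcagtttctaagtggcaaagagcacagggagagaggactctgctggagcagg

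The windows of Il18 and Il13ra1 held 0 matches, and that of Il19 held 1 of each motif, GAAAATGAAA beginning at position -107 and TTCCCAGAA at position -225 from the start, without overlap. Windows were given for 59 of the 76 genes. The first motif was found in 3 of those 59 genes, Il19, Il1rap and Il4, or 5.08%, beside 3.99% of all 27025 genes with a window. The second was found in 11 of 59, or 18.6%, beside 9.55% of all genes. A match is a run of letters and was not shown to be bound.

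Of the receptors in the IL-17 family, the chains Il17ra and Il17rc read lower together and Il17re higher. IL-17RA is the chain shared by all IL-17 receptors, and IL-17RC completes the receptor for IL-17A and IL-17F. Il17ra read 7.46, 7.45 and 7.28 in Stat2 KO hosts against 7.68, 7.85 and 7.55 in WT hosts, without overlap. Il17rc read 8.06, 8.04 and 7.77 in Stat2 KO hosts against 8.48, 8.45 and 7.96 in WT hosts, where WT replicate 3 overlapped the Stat2 KO values. The differences were -0.30 (SE 0.137, adjusted p = 0.57) for Il17ra and -0.34 (SE 0.166, adjusted p = 0.59) for Il17rc by limma. The median of all genes in their level bins was -0.10 and -0.12. Without WT replicate 3, Il17rc stood at -0.51. Il17re, which with IL-17RA receives IL-17C, averaged 6.79 ± 0.081 in the Stat2 KO group and 6.47 ± 0.269 in WT hosts (SD, n = 3 each), a difference of 0.32 (SE 0.154) without overlap.

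Il17f, a product of T cells that acts through IL-17RA and IL-17RC, read 5.98, 6.27 and 6.16 in Stat2 KO hosts against 5.67, 5.88 and 5.46 in WT hosts. All Stat2 KO values were higher, and the difference was 0.46 (SE 0.151, unadjusted p = 0.0095, adjusted p = 0.49, limma). Among genes of its level bin 2.16% were as high. Il17f averaged 5.91 over the 6 tumours, below the receptor bound, and was not shown to read above background. Il17a, its close relative, read 5.94, 6.01 and 5.56 in the Stat2 KO group and 5.51, 6.04 and 5.65 in WT hosts, with a difference of 0.10 (SE 0.174). Il25, Il17c and Il17b differed by 0.03, 0.16 and -0.20, and all 3 had overlapping groups.

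**Figure D4:**
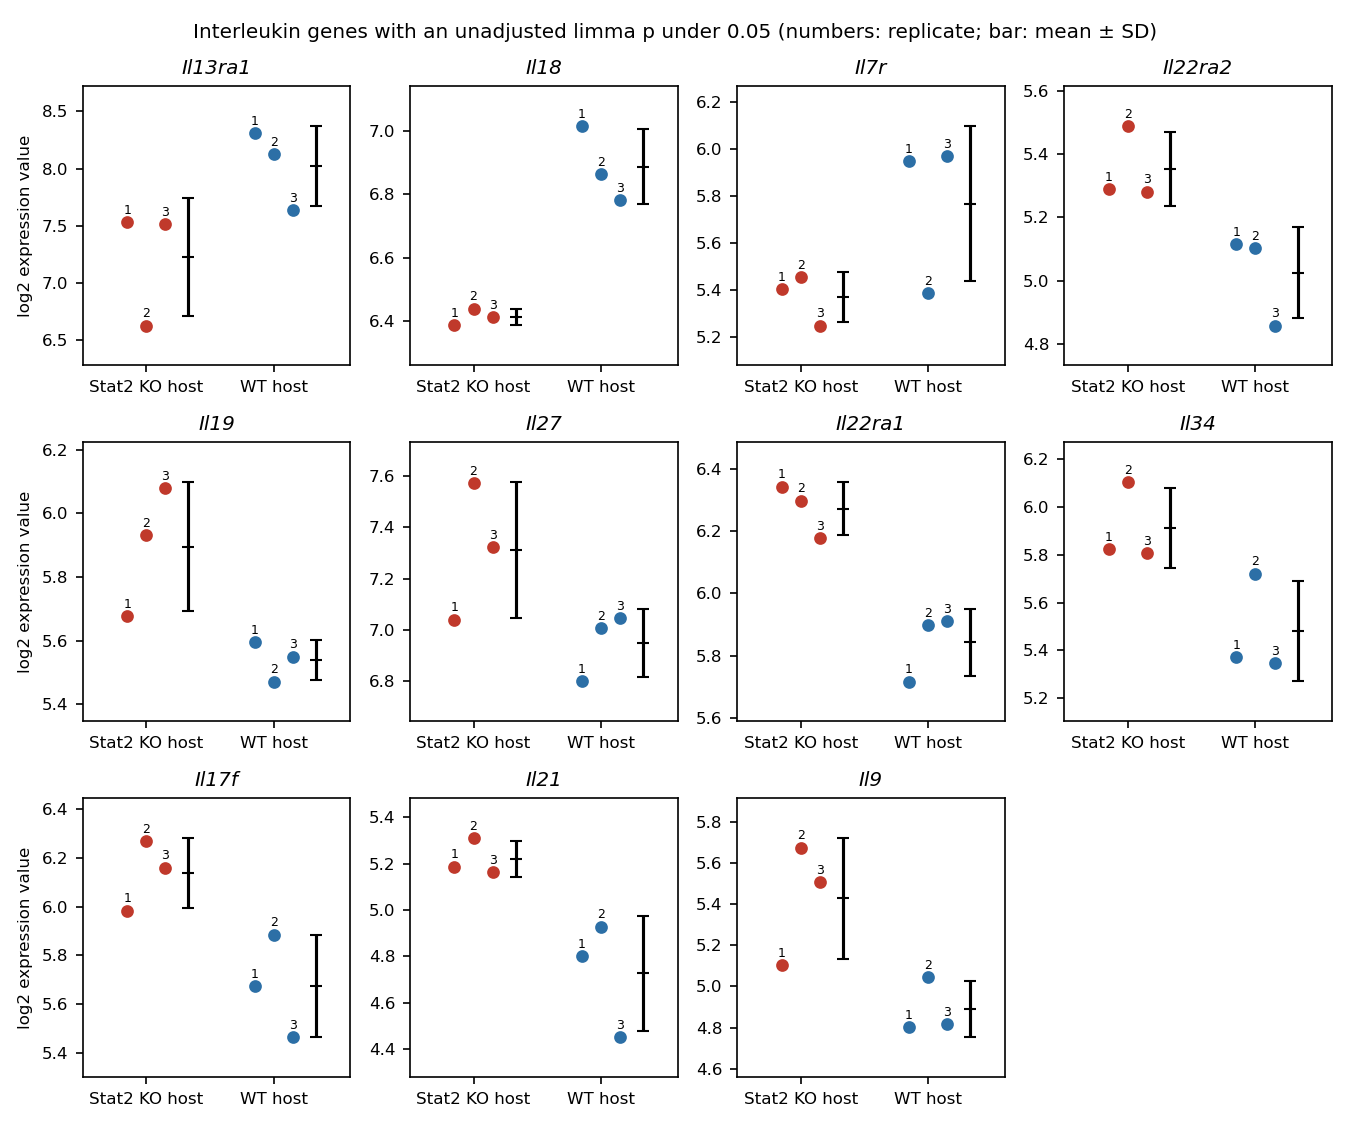
Log2 expression value in each tumour for the 11 genes with an unadjusted p under 0.05, Stat2 KO hosts (red) left of WT hosts (blue), with replicate numbers and the mean ± SD (n = 3) beside each group; each panel has its own axis. Stat2 KO means lie below WT means for Il13ra1, Il18 and Il7r and above them for the other 8 genes; groups overlap for Il7r and Il27.

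Cytokines that signal through the common gamma chain are growth and survival factors of lymphocytes. Il9 and Il21 had the largest differences in the higher direction of all 76 genes. Il9 read 5.10, 5.68 and 5.51 in Stat2 KO hosts against 4.80, 5.05 and 4.82 in WT hosts, and Il21 read 5.19, 5.31 and 5.16 in Stat2 KO hosts against 4.80, 4.93 and 4.45 in WT hosts. The groups did not overlap for either. Il9 differed by 0.54 (SE 0.172) and Il21 by 0.49 (SE 0.162), both with an adjusted p of 0.49 (limma). Both genes averaged slightly above the receptor median of 5.15 in Stat2 KO hosts, at 5.43 and 5.22, and below it in WT hosts, at 4.89 and 4.73. Of equally bright genes, 2.16% were as high as Il9 and 3.52% as high as Il21. Neither was therefore shown to read above background, and the T cell markers were also dim, with 9 of 10 above zero and a median difference of 0.12. Of all genes at or below the receptor bound 70.8% were above zero, with a median of 0.10.

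The other gamma chain ligands had overlapping groups. Il15, which sustains NK cells and memory CD8 T cells, read 5.53, 5.62 and 6.38 in the Stat2 KO group and 6.39, 5.84 and 5.93 in WT hosts. Stat2 KO replicate 3 came close to the highest WT value, and the difference was -0.21 (SE 0.221). Without that replicate it was -0.48, and over all 6 choices of the array left out it ran from -0.48 to -0.04. Il15ra, which presents IL-15 to those cells, differed by 0.10 (SE 0.150). Il2 differed by 0.10 (SE 0.162) and Il7 by 0.16 (SE 0.151). Among the 7 receptor chains, 4 were lower and 3 higher, with a median of -0.004.

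Il7r, the IL-7 receptor alpha chain of T cells and their precursors, had the lowest difference of these receptors. It read 5.40, 5.45 and 5.25 in Stat2 KO hosts against 5.95, 5.39 and 5.97 in WT hosts. WT replicate 2 lay within the Stat2 KO range. The difference was -0.40 (SE 0.172, unadjusted p = 0.038, adjusted p = 0.55, limma), and without WT replicate 2 it was -0.59. Il7r averaged 5.57 over the 6 tumours, below the receptor bound, and was not shown to read above background. Il2ra, Il2rb, Il9r and Il21r differed by -0.004, -0.02, 0.05 and 0.31.

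In the IL-6 and IL-12 families the ligand gene Il27 and the receptor gene Il27ra both read higher in Stat2 KO hosts. IL-27 is a product of activated myeloid cells that both promotes and restrains T cell responses. Its other chain is encoded by Ebi3, which lies outside the interleukin genes by its symbol. Ebi3 differed by 0.07 (SE 0.128, adjusted p = 0.87, limma), below the median of 0.11 in its level bin. Its groups were apart by a very narrow margin, and it averaged 5.79, below the receptor bound. Il27 read 7.04, 7.57 and 7.32 in Stat2 KO hosts against 6.80, 7.01 and 7.05 in WT hosts. Stat2 KO replicate 1 overlapped the WT values, the difference was 0.36 (SE 0.157, adjusted p = 0.55, limma), and without Stat2 KO replicate 2 it was 0.23. It was the 1 gene above the receptor bound among the 8 higher at an unadjusted p under 0.05. Il27ra read 6.39, 6.82 and 6.59 in Stat2 KO hosts against 6.38, 6.30 and 6.23 in WT hosts, apart by a narrow margin, with a difference of 0.30 (SE 0.144, adjusted p = 0.58, limma) that was 0.19 without Stat2 KO replicate 2.

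The inflammatory cytokine Il6 had the dimmest probe set of the family, 3.90 ± 0.035 in the Stat2 KO group and 3.87 ± 0.186 in WT hosts (SD, n = 3 each), below the receptor median in every tumour. Il12b, the shared chain of IL-12 and IL-23, averaged 5.42 ± 0.210 in the Stat2 KO group and 5.28 ± 0.114 in WT hosts (SD, n = 3 each), and its groups overlapped. The remaining members ran from -0.07 for Il31 to 0.28 for Il31ra, with Il12a at 0.25, Il23a at -0.04 and Il12rb1 at -0.002.

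In the IL-10 family 10 of 11 genes had a difference above zero, where 70.8% of all genes at or below the receptor bound did. At an unadjusted p under 0.05, 3 were higher, as were 5.34% of all genes and 1047 of the 13536 at or below the bound. Il22ra1, the epithelial receptor chain for IL-22, read 6.34, 6.30 and 6.18 in Stat2 KO hosts against 5.72, 5.90 and 5.91 in WT hosts. The groups were well apart, by more than their spread, and the difference was 0.43 (SE 0.132, unadjusted p = 0.00685, adjusted p = 0.47, limma). Among genes of its level bin 2.66% were as high. Il22ra2, a soluble decoy for IL-22, differed by 0.33 (SE 0.147) and Il19, a product of myeloid and epithelial cells, by 0.36 (SE 0.145), both without overlap. Il22ra1, Il22ra2 and Il19 averaged 6.06, 5.19 and 5.72 over the 6 tumours, below the receptor bound. None of them was therefore shown to read above background. Il22 itself averaged 1.89 ± 0.386 in the Stat2 KO group and 2.00 ± 0.621 in WT hosts (SD, n = 3 each), the dimmest of all 76.

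Il10, the anti-inflammatory cytokine of macrophages and regulatory T cells, read 5.44, 5.52 and 5.29 in the Stat2 KO group and 5.06, 5.46 and 5.39 in WT hosts. The groups overlapped, and the 95% interval of the difference ran from -0.22 to 0.45. Its ligand-binding receptor chain Il10ra averaged 4.87 ± 0.156 in the Stat2 KO group and 4.82 ± 0.020 in WT hosts (SD, n = 3 each).

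Outside these families, Il34, the second ligand of the CSF1 receptor, read 5.83, 6.11 and 5.81 in Stat2 KO hosts against 5.37, 5.72 and 5.35 in WT hosts, without overlap. Its difference was 0.43 (SE 0.155, unadjusted p = 0.016, adjusted p = 0.51, limma), and 4.15% of the genes in its level bin were as high. Il34 averaged 5.70 over the 6 tumours, below the receptor bound, and was not shown to read above background. Il16 differed by 0.16. The common beta chain ligands Il3 and Il5 differed by 0.10 and 0.22, and the IL-5 receptor chain Il5ra by 0.32 (SE 0.153), with overlapping groups.

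**Figure D5:**
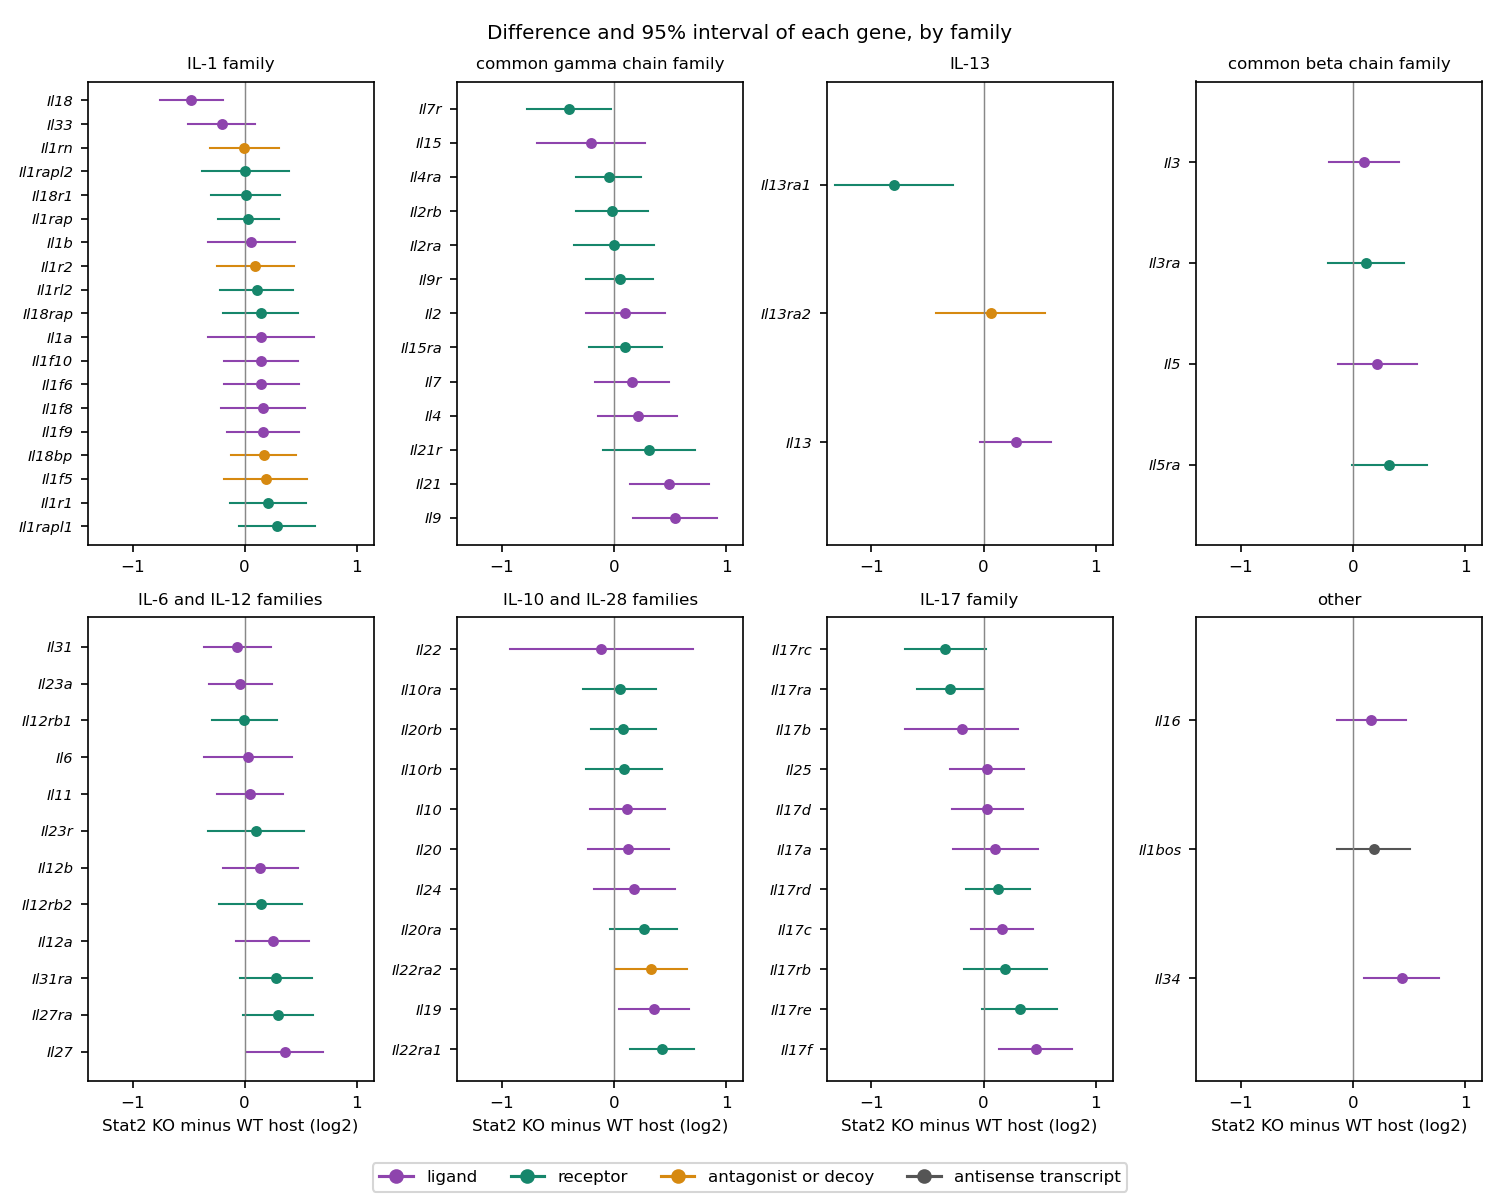
Difference in log2 expression (Stat2 KO host minus WT host, dots) with its 95% interval (lines) for the 76 genes, in panels by family and coloured by role. Intervals lie below zero for Il18, Il7r and Il13ra1, and above it for the 8 genes with a higher unadjusted call. These intervals are not adjusted for the number of genes.

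By role, the median difference was 0.14 for the 37 ligands, 0.10 for the 32 receptor chains and 0.13 for the 6 antagonists and decoys. Against the medians of their own bins, 23 ligands lay above and 14 below, and receptor chains were split 16 and 16. A list of genes linked to interleukin signalling had differences mostly below zero, 21 of 28 measured, with a median of -0.07. Most act downstream of the receptors. The list also holds the cytokine genes Tslp and Ebi3 and the receptor genes Csf2rb, Csf2rb2, Crlf2 and Sigirr. Of the 16 above the receptor bound 15 lay below zero, where 72.1% of all such genes did, and of the 12 others 6 did, beside 29.2%. Of the list only Stat5a, which relays signals of IL-2 and IL-7, was lower at an unadjusted p under 0.05, beside 3.48% of all genes. It averaged 7.45 ± 0.057 in the Stat2 KO group and 7.83 ± 0.304 in WT hosts (SD, n = 3 each). After adjustment 0 of the list passed.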

How the data were processed

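The authors deposited 1 log2 value for each probe set on each array. Per the submitters' processing notes these came from RMA, run in Affymetrix Expression Console 1.3.1. RMA subtracts background, equalizes probe distributions between arrays and summarizes probes, so differences that span most genes may be reduced. The sources used here name no genome build for the array. The table holds 41345 probe sets, of which the platform annotation names 1 gene for 23521, several for 1814 and none for 16010. The brightest single-gene probe set stood for each of 22180 genes, with no filter on dim ones, and all 76 interleukin genes matched the RefSeq gene table by identifier. Only Il1rap among them had more than 1 such probe set.

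Differences (Stat2 KO host minus WT host) were fitted over all genes with limma 3.58.1 in R 4.3.3 (lmFit, eBayes with an intensity trend, two-sided, Benjamini-Hochberg, threshold 0.05), with 4 residual and 8.14 prior degrees of freedom. All SEs, intervals and p-values of single genes come from this fit, except exact two-sided permutations of the 6 arrays. The fit was tested on simulated data.

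Members, families, gene lists and alternatives were chosen with earlier results of these data known. Named members were those with an unadjusted p under 0.05, the 10 brightest, the 6 largest differences, the smallest p in each family and role, and a standing panel. The panel listed 17 well-known genes, of which Il2rg was not analysed. Il1bos was given its role after the table was read. Other members are named to complete a family or to give a count's members, after their values were seen.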

Additional observations from a re-analysis of the deposited data

How the results depend on the processing

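All 16 alternatives left 0 of the 76 genes past the adjusted threshold in either direction, and the smallest adjusted p of a named gene was 0.0533, for Il18 with array weights. Of all 22180 genes, 257 passed that threshold with array weights and 17 without WT replicate 3. Each other alternative had 4 or fewer among the genes it tested. The counts at an unadjusted p under 0.05, 3 lower and 8 higher, became 5 lower and 10 higher with the replicate number as a block (4.76% and 6.44% of all genes), 5 and 17 with array weights (10.5% and 12.1% of all genes), and 5 higher after median centring (2.95%). They were 2 higher of 17 genes brighter than the median gene (2.71% of all such genes) and 1 higher of 9 above the receptor bound (1.76%). Groups not overlapping in the higher direction numbered 7 after cyclic loess (5.97% of all genes), 2 among genes brighter than the median gene (3.59%) and 0 above the receptor bound (2.30%), where 2 were lower (8.98%). The median difference, 0.12, was 0.064 after quantile normalization, 0.047 after median centring, 0.042 after cyclic loess and 0.033 under both filters on dim genes. Leaving out 1 array at a time gave medians from 0.084 to 0.15, counts at an unadjusted p under 0.05 of 2 to 4 lower and 4 to 14 higher (14 without Stat2 KO replicate 1, 4 when replicate 2 and 5 when replicate 3 of that group was left out, beside 8.24%, 3.94% and 3.39% of all genes), and separate groups for 4 to 6 lower and 15 to 32 higher (32 when Stat2 KO replicate 1 was left out, beside 20.0% of all genes, and 22 when WT replicate 3 was, beside 16.8%). The filters test fewer genes and leave-one-out uses fewer arrays; for the other settings the cause was not tested.

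Replicate numbers were not taken to pair the tumours: the deviations of same-numbered tumours correlated at 0.24, 0.079 and 0.030, and 3 of 6 tumours correlated best with their own number.

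Of 38 named genes, 24 kept their sign in every alternative, and 14 did not. Leaving out 1 array moved the difference by over 1.5 times for 24 of the 38. Median centring lowers every difference by the same 0.075, so its changes of sign follow from the size of the difference, and it is the 1 setting that turned Il1rap. Il1b stood at -0.021 after quantile normalization, -0.014 after median centring, -0.044 after cyclic loess and -0.039 with array weights. Median centring also gave -0.024 for Il10ra, -0.013 for Il13ra2, -0.041 for Il17d, -0.043 for Il1rap and -0.044 for Il6, and cyclic loess gave -0.033 for Il10ra and -0.0038 for Il6. Array weights gave -0.0077 for Il10, 0.15 for Il15, -0.16 for Il17a and -0.10 for Il17d. Leaving out 1 array gave ranges of -0.0070 to 0.24 for Il10rb, -0.042 to 0.15 for Il17d, -0.032 to 0.20 for Il3ra, -0.10 to 0.025 for Il4ra, -0.12 to 0.19 for Il1b, -0.019 to 0.14 for Il10ra, -0.090 to 0.21 for Il13ra2, -0.0070 to 0.20 for Il10, -0.0062 to 0.26 for Il17a, -0.032 to 0.21 for Il2, -0.043 to 0.14 for Il6 and -0.049 to 0.36 for Il1a.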

Other observations

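Markers of mast cells and basophils, cells known to respond to IL-3, IL-9 and IL-33, gave mixed values. Of 10 measured markers 7 had a difference above zero and 3 below, with a median of 0.14. All but 1 lay at or below the receptor bound, where 70.8% of all genes were above zero, with a median of 0.10. By limma 3 had an unadjusted p under 0.05 in the higher direction, and 0 passed after adjustment. The background for that count is 5.34% of all genes, and 1047 of the 13536 genes at or below the bound. The mast cell protease gene Cpa3 read 5.22, 5.08 and 5.04 in Stat2 KO hosts against 4.75, 4.63 and 4.28 in WT hosts, a difference of 0.56 (SE 0.166). Fcer1a, the alpha chain of the IgE receptor, differed by 0.55 (SE 0.204) and the basophil protease gene Mcpt8 by 0.43 (SE 0.162). Cpa3 and Fcer1a averaged below the median of olfactory and vomeronasal receptor genes, at 4.83 and 4.08 over the 6 tumours. The 1 marker above the 95th percentile of those genes, Kit, the stem cell factor receptor, which melanocytes also carry, differed by -0.23 (SE 0.141), and Hdc and Mcpt4 by -0.10 and -0.05. Dim genes in general read higher in Stat2 KO hosts.

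The 2 dimmer probe sets of Il1rap averaged 4.60 and 4.76 and differed by 0.23 and 0.28, where the brightest, at 6.99, differed by 0.03.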
